A study of Nicotiana tabacum with 20 samples.

Results

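The 99 most abundant features of tobacco leaf RNA below the single most abundant one were described across wild-type and transgenic plants. Total gene reads of 20 libraries were summed per feature, the 24069 features were ranked downwards by that sum, and ranks 2 to 100 were kept. Of the 24069 features, 20394 had a read in some library. The members were thus chosen by measured abundance over all libraries. They held 5677905 of the 9342045 reads outside rank 1, which is 60.8%. Rank 1 was left out because it alone took 73.8% to 90.5% of each library. Each feature is therefore given as its share of the reads outside rank 1, in percent.

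Leaf RNA of *Nicotiana tabacum* was sequenced in a study of the retrotransposon Tnt1, a mobile element that copies itself through RNA. There were 5 groups of 4 libraries. WT was untransformed tobacco. C had been transformed with the empty vector, in which the 35S promoter, an intron and the OCS terminator stood without a Tnt1 insert, next to hygromycin resistance. HP8_T1 and HP1_T1 were 2 hairpin lines whose transgene placed a sense and an antisense copy of a Tnt1 reverse transcriptase fragment around an intron, between the 35S promoter and the OCS terminator, with hygromycin resistance and a GUS reporter. HP1_T2 was the selfed progeny of HP1_T1. The 35S promoter of cauliflower mosaic virus is active in most plant tissues. The transgenic plants were regenerants or descended from them, so C, HP8_T1, HP1_T1 and HP1_T2 share passage through transformation and selection, and each hairpin line is 1 line. The labels used here give no line or generation for C. All plants were grown in vitro on MS20 medium and sampled at 45 days, under 14 h of light at 24 °C. The libraries were made from total RNA. Whether the 4 libraries of each group are separate plants is not stated in the labels. A p-value here measures library spread only, which may be technical.

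Leaf RNA is known for its uneven makeup. In green cells a few nuclear transcripts, among them those of the small subunit of the carbon-fixing enzyme Rubisco and of the chlorophyll-binding antenna proteins, usually take a large part of the messenger RNA, and total RNA can also bring in ribosomal and plastid transcripts. A share is relative: when a dominant transcript takes less of a library, the shares of all others go up together. Which of the 99 features belong to these classes cannot be said here, because the files give UniGene identifiers without names and 0 of the 99 matched any of the 79372 genes in the reference table. For the same reason no marker could be used to check the leaf label, and functions are not stated. Features are called by their rank and, where first described, by their length in bases.

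Reads outside rank 1 ranged from 373621 to 588042 per library in WT, from 199341 to 293708 in C, and from 406165 to 647426 in the hairpin groups. Rank 1 took 88.1% to 90.5% of all reads in C, 82.3% to 86.1% in WT and 73.8% to 80.7% in the hairpin libraries. Its part in the shares of the other features was not tested beyond leaving it out.

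The list was steep at its top and flat at its end. Rank 2, of 868 bases, held 2812535 reads, or 49.5% of all reads in the 99 features. Rank 3, of 855 bases, held 383414 reads, and rank 10, of 540 bases, held 81203. At the lower limit the values lay close together. Ranks 98, 99 and 100 had 6000, 5955 and 5862 reads, while the 3 features just outside had 5847, 5841 and 5746. The features were 457 to 4674 bases long with a median of 899, beside 888 for all features tested. Set per length, ranks 2 and 3 had 3240250 and 448437 reads per kb, and rank 4, of 554 bases, had 605038, so that the order of ranks 3 and 4 turns on that scale. Of the 99 features, 83 were also among ranks 2 to 100 by reads per base.

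The sum over 20 libraries let a feature enter through 1 group. The 12 hairpin libraries weigh more in it than the 4 of WT or the 4 shallow libraries of C. Ranked within each group, 43 of the 99 features were in the top 100 of all 5 groups, and 39 were in the top 100 of all 20 libraries. A further 16 were in the top 100 of 4 groups, 18 of 3, 17 of 2 and 5 of 1 group. The top 100 of WT held 62 of the 99 features, that of C 75, and those of HP8_T1, HP1_T1 and HP1_T2 78, 79 and 78. All 99 passed the filter on low counts, and 98 had reads in every library. Members that are very low in some group must be high in another to be on the list, so the width of their spread is a description. A p-value for such a member against the group that let it in is no support. The same limit holds for counts of higher or lower members set beside all tested features.

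Between the highest and the lowest group mean, the median ratio over the 99 features was 2.85. In 71 features the ratio was at least 2, in 13 it was at least 10, and in 8 it was under 1.5. Among the 43 features in the top 100 of all 5 groups, 17 had a ratio of at least 2, the median was 1.82 and the largest was 7.39. Within groups the libraries lay close together: the median coefficient of variation was 7.23%, beside 5.52% from counting alone. On this scale 36 features were highest in WT, 30 in HP1_T1, 18 in HP8_T1, 8 in C and 7 in HP1_T2, and 44 were lowest in WT. In 27 features the order of means was WT, then C, then all hairpin groups, and in 20 it was the reverse.

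**Figure D1:**
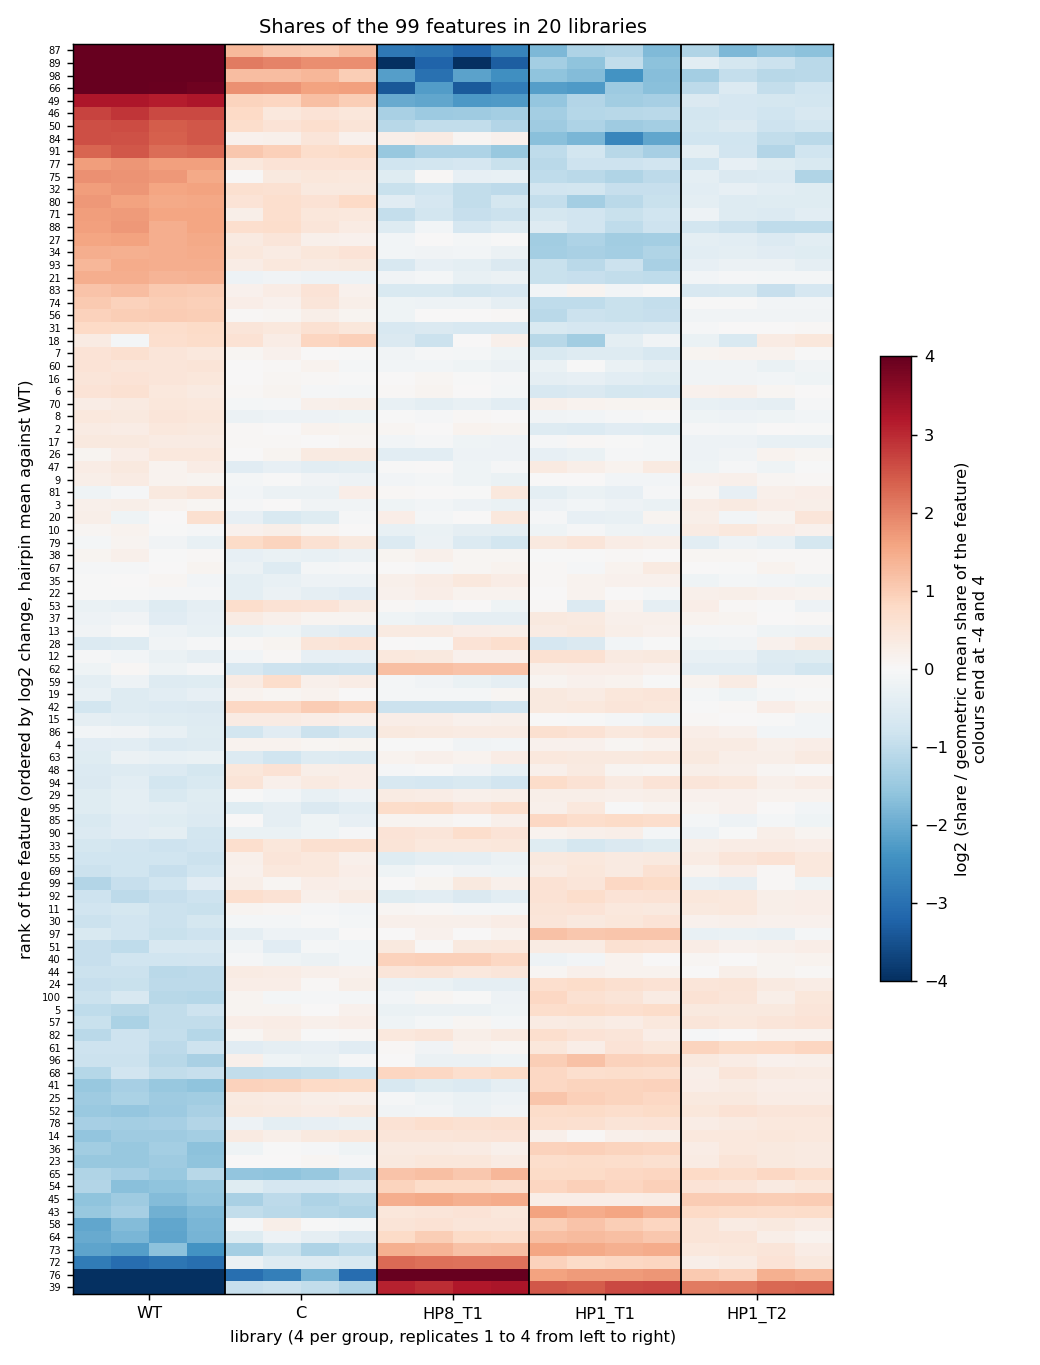
Colour gives the log2 ratio of a feature's share in a library to its geometric mean share over the 20 libraries, for the 99 features (lines, labelled by rank and ordered by the fitted change of the hairpin mean against WT) and 20 libraries (4 per group). WT stands apart at both ends: ranks 87, 89, 98 and 66 are high in WT and low in all hairpin groups, and ranks 39, 76 and 72 are the reverse, with C between.

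Taken as a sum, the 99 features held less of the RNA outside rank 1 in every transgenic group than in WT. The sum was 69.4% ± 0.535 in WT and 61.7% ± 0.670 in C (SD, n = 4 libraries each). Line 1 had 52.1% ± 0.228 in T1 and 61.4% ± 0.406 in T2, and HP8_T1 had 60.4% ± 0.509 (SD, n = 4). The WT libraries, from 68.9% to 70.0%, did not overlap with those of any other group, the nearest being C at 61.1% to 62.6%. HP1_T1, at 51.9% to 52.4%, lay below all others. Most of the difference from WT sat in rank 2. Its own difference was -6.73 percentage points in C, out of -7.69 for the whole list. It was -17.2 of -17.3 in HP1_T1, -9.35 of -8.01 in HP1_T2, where other members gained, and -6.83 of -9.06 in HP8_T1.

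Ranks 3 to 10 summed to 15.4% ± 0.560 in WT, 15.8% ± 0.516 in C and 14.2% ± 0.385 in HP8_T1 (SD, n = 4). In line 1 they summed to 16.1% ± 0.398 in T1 and 18.5% ± 0.492 in T2 (SD, n = 4). HP1_T2 was above and HP8_T1 below all other libraries, while WT, C and HP1_T1 overlapped. Ranks 11 to 100 summed to 15.7% ± 0.260 in WT, 14.3% ± 0.0824 in C and 14.6% ± 0.124 in HP8_T1 (SD, n = 4). In line 1 they summed to 14.98% ± 0.132 in T1 and 13.9% ± 0.0452 in T2 (SD, n = 4). No 2 groups overlapped in this block. Its sums still lay close together and hid an exchange among its members. The choice by summed reads takes in features high only in WT or only in hairpin groups, so the exchange is a description. In HP1_T1, gains of features above their WT mean came to 6.35 percentage points and losses of those below it to -7.09, a net change of -0.733. Gains and losses were 5.44 and -6.51 in HP8_T1, 4.63 and -6.43 in HP1_T2 and 3.81 and -5.22 in C.

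**Figure D2:**
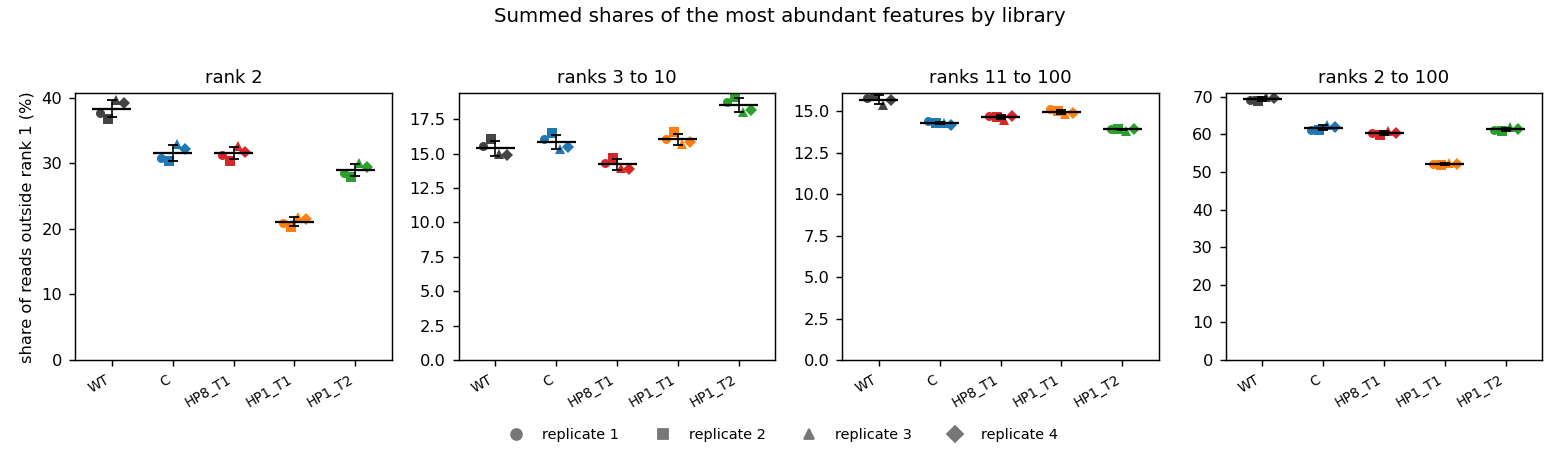
Each point is a library's summed share of the reads outside rank 1 in percent, by group, for rank 2 alone, ranks 3 to 10, ranks 11 to 100 and all of ranks 2 to 100. Bars and whiskers are the mean and SD of 4 libraries. Rank 2 is highest in WT at 38.3% and lowest in HP1_T1 at 21.1%. The sum of all 99 is likewise highest in WT and lowest in HP1_T1. The group means of ranks 11 to 100 lie between 13.9% and 15.7%, and no 2 groups overlap there.

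Rank 2 made up 37.7%, 36.8%, 39.7% and 39.2% of the reads outside rank 1 in the 4 WT libraries. It made up 30.8%, 30.4%, 32.98% and 32.2% in C and 31.3%, 30.4%, 32.6% and 31.8% in HP8_T1. In HP1_T1 it made up 20.8%, 20.3%, 21.9% and 21.5%, and in HP1_T2 28.6%, 27.9%, 30.01% and 29.4%. WT was above all other libraries and HP1_T1 below them, and C and HP8_T1 overlapped. In edgeR's quasi-likelihood test of all 6921 features that passed the filter, with Benjamini-Hochberg adjustment, the log2 fold change of rank 2 was -0.28 in C against WT (SE 0.03, adjusted p = 1.6e-11). It was higher in HP1_T2 than in HP1_T1 by 0.46 (SE 0.03, adjusted p = 1.8e-21) and in HP8_T1 than in HP1_T1 by 0.58 (SE 0.03, adjusted p = 1.17e-28). Averaged over the 3 hairpin groups it was at -0.52 against WT (SE 0.03, adjusted p = 1.64e-33), but as a share of all reads, rank 1 included, this value was 0.00.

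Rank 5, of 543 bases, was the member of the first 10 that stood most above WT. It made up 1.27%, 1.202%, 1.295% and 1.47% in WT, 2.75%, 2.78%, 2.61% and 2.87% in C, and 2.15%, 2.19%, 2.17% and 2.28% in HP8_T1. It reached 4.15%, 4.27%, 4.06% and 4.24% in HP1_T1 and 3.38%, 3.40%, 3.37% and 3.605% in HP1_T2. No 2 groups overlapped, and the order from low to high was WT, HP8_T1, C, HP1_T2, HP1_T1. Its rise was 1.07 on the log2 scale in C against WT (SE 0.05) and 1.27 in the hairpin mean against WT (SE 0.04), with edgeR adjusted p-values of 2.14e-38 and 2.45e-50. Rank 4 was higher than WT by 0.61 in C and 0.60 in the hairpin mean on the share scale, with WT libraries at 2.46% to 2.68% and all others at 3.27% to 4.50%. That difference turned to -0.06 and -0.07 with TMM factors, which centre on the bulk of features.

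Ranks 6, 7 and 8, of 887, 544 and 912 bases, were highest in WT without overlap. Rank 6 lay between 1.76% and 2.10% in WT and between 0.852% and 1.59% elsewhere. Rank 7 lay between 1.51% and 1.74% in WT and between 0.722% and 1.27% elsewhere, and rank 8 between 1.32% and 1.40% against 0.847% to 1.04%. In C against WT all 3 fell, with log2 fold changes of -0.48, -0.45 and -0.65 and edgeR adjusted p-values of 4.05e-13, 2.07e-12 and 8.51e-21.

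Ranks 3, 9 and 10 differed less between C and WT than ranks 4 to 8 did. Rank 3 was at 4.57% ± 0.222 in WT and 3.87% ± 0.186 in C (SD, n = 4), and rank 10 at 0.908% ± 0.0540 and 0.955% ± 0.0620, overlapping. Rank 9, of 866 bases, lay at 1.06% to 1.23% in WT and 0.845% to 0.969% in C. Its log2 fold change of -0.31 there became 0.01 on reads that map to 1 feature alone, which were 23.2% of its reads, so it may share reads with a near-identical copy. In ranks 6, 3 and 10, HP1_T2 was above HP1_T1 by 0.77, 0.48 and 0.45 on the log2 scale.

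Across all 5 groups, a difference of some kind was called for all 99 features, beside 92.6% of all tested features, and nothing particular to the list can be read from that. Members hold more reads, so smaller changes pass the test. In C against WT the median SE of the log2 fold change was 0.08 for the 99 features and 0.41 for all tested. Shares were also not centred. The median log2 fold change of all tested features was 0.68 in C against WT, 0.92 in the hairpin mean against WT, 0.17 in the hairpin mean against C, -0.33 in HP8_T1 against HP1_T1 and -0.31 in HP1_T2 against HP1_T1. The medians of the 99 features were 0.07, 0.38, 0.00, -0.11 and -0.08 in that order, so that relative to the bulk of features they stood lower in the first 3 comparisons and higher in the other 2. In bulk tissue, fewer cells of a type and less RNA per cell cannot be told apart. Comparisons with WT and with C below share those control libraries.

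The comparison of C with WT sets transformation and regeneration with an empty vector against untransformed plants. On the share scale 48 of the 99 features were higher, beside 42.7% of all tested, and 44 were lower, beside 9.44%. With TMM factors 28 were higher, beside 20.5%, and 56 lower, beside 21.3%. The same direction was called under all 7 scalings tried for 28 higher features, beside 20.5%, and for 44 lower ones, beside 9.44%. Called changes of at least 2-fold were seen in 39 features, beside 42.0% of all tested. They were 21 up and 18 down, beside 2423 and 482 of the 6921 tested. The former were thus below the background and the latter above it. Members that were lower in C were thus more frequent than in the background under each of these rules, though smaller changes pass the test in members. Those that were higher, without a limit on size, were nearer to it. Features high in WT alone are on the list because of their WT reads. The excess of lower members is therefore a description.

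Rank 39, Nta#S36360537 of 817 bases, had 4, 0, 1 and 2 reads in WT and 36, 51, 51 and 39 in C. Its shares in C were 0.0181%, 0.0187%, 0.0174% and 0.0145%, above every WT library. It rose by 5.51 as a log2 fold change (SE 0.29, edgeR adjusted p = 9.51e-33), a value that rests on 7 reads in WT. Rank 72, of 2888 bases, rose by 2.46 (SE 0.14), from 0.00488% to 0.00589% in WT to 0.0268% to 0.0346% in C. Rank 41, of 828 bases, lay at 0.0388%, 0.0437%, 0.0386% and 0.0365% in WT and at 0.210%, 0.206%, 0.194% and 0.187% in C, and rose by 2.33 (SE 0.08). C was as high as HP1_T1 in rank 41 and above HP8_T1. Rank 58, of 898 bases, rose by 1.94 (SE 0.10), and rank 76 by 1.91 (SE 0.45) from 2, 3, 4 and 2 reads in WT to 3, 5, 10 and 4 in C, where depth allows little precision.

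The falls of C against WT were led by ranks 87, 98, 89, 66 and 84. Rank 87, Nta#S33533784 of 920 bases, had shares of 0.317%, 0.319%, 0.286% and 0.293% in WT and 0.0271%, 0.0234%, 0.0232% and 0.0264% in C. It fell by 3.61 (SE 0.09). Rank 98, of 946 bases, fell by 3.04, rank 89, of 1080 bases, by 2.64, rank 66, of 952 bases, by 2.25 and rank 84, of 1223 bases, by 2.22, each with an SE of 0.09. In all 5 the lowest WT library was above the highest C library. The 10 changes named for this comparison kept their direction and call under all 7 scalings.

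In the fit without a replicate term, the features with no call in this comparison were ranks 10, 12, 18, 26, 65, 68 and 95. Rank 65, of 1236 bases, lay at 0.0204% to 0.0266% in WT and 0.0187% to 0.0253% in C, overlapping, and at 0.0928% to 0.142% in the hairpin libraries. With TMM factors it was lower in C by 0.84 on the log2 scale, past the threshold.

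Setting the 3 hairpin groups' mean against WT compares hairpin plants with untransformed ones. Transformation, regeneration and the hairpin itself cannot be told apart in it. On the share scale 56 features were higher, beside 61.4% of all tested, and 38 lower, beside 12.4%. With TMM factors these were 36, beside 35.3%, and 54, beside 23.5%. Under all 7 scalings 35 were higher, beside 32.8%, and 24 lower, beside 7.54%. Called changes of at least 2-fold were seen in 57 features, beside 54.2%. They were 34 up and 23 down, beside 3226 and 522 of the 6921 tested. Again the lower features were above the background under each of these rules. The higher ones were near it without a limit on size and below it at 2-fold. Features high in WT alone are on the list because of their WT reads, so the excess of lower members is a description.

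Rank 39 had 1330, 1617, 2037 and 1881 reads in HP8_T1. It had 784, 1092, 1332 and 1186 in HP1_T1 and 600, 733, 780 and 754 in its T2 progeny. As shares these were 0.290%, 0.262%, 0.315% and 0.328%, then 0.193%, 0.185%, 0.212% and 0.216%, then 0.143%, 0.148%, 0.166% and 0.170%. The order was WT, C, HP1_T2, HP1_T1, HP8_T1, and no neighbours in it overlapped. Its group means spanned a ratio of 734, the widest of the list, and it was in the top 100 of the 3 hairpin groups only. Its log2 fold change in the hairpin mean against WT was 9.14 (SE 0.16), between 8.43 and 9.64 over the 7 scalings. It rests on few WT reads: without WT replicate 1, which held 4 of the 7, it was 9.98, and the value in C against WT was 6.35. Of its reads, 68.7% were unique.

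Rank 76, Nta#S33578631 of 1005 bases, was a feature of HP8_T1 above all. It had 1099, 1459, 1636 and 1520 reads there, against 152, 237, 250 and 227 in HP1_T1 and between 105 and 153 in HP1_T2. Its shares were 0.240%, 0.237%, 0.253% and 0.265% in HP8_T1 and 0.0374%, 0.0401%, 0.0397% and 0.0414% in HP1_T1, with 0.000389% to 0.00068% in WT. It rose by 6.82 in the hairpin mean against WT (SE 0.17) and was in the top 100 of HP8_T1 alone, through which it is on the list. Rank 72 rose by 4.08 (SE 0.10), rank 73, of 2377 bases, by 3.11 (SE 0.09) and rank 64, of 710 bases, by 2.73 (SE 0.09). In rank 64 only 30.1% of reads were unique, and on these it rose by 2.18. Ranks 39, 64, 72, 73 and 76 were outside the top 100 of WT and of C, so the sizes of their rises are a description.

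The deepest falls against WT were in features with most of their reads in WT, through which they are on the list. The depth of these falls is therefore a description. Rank 87 had 1185, 1698, 1679 and 1510 reads in WT and 54, 64, 68 and 71 in C. It had 7, 9, 8 and 10 in HP8_T1, against 13, 28, 31 and 18 in HP1_T1 and 20, 16, 18 and 16 in HP1_T2. It fell by 6.71 in the hairpin mean (SE 0.08). WT, C and the hairpin libraries formed 3 levels without overlap.

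Rank 89, Nta#S33578574, had shares of 0.273%, 0.308%, 0.282% and 0.276% in WT and 0.0507%, 0.0472%, 0.0432% and 0.0432% in C. It had 1, 8, 2 and 7 reads in HP8_T1, and its shares were 0.00468%, 0.00389%, 0.00604% and 0.00383% in HP1_T1 and 0.00884%, 0.00727%, 0.0066% and 0.00563% in HP1_T2. It fell by 6.57 (SE 0.08). The 3 levels of rank 87 were seen here as well, and both hairpin groups of line 1 lay above HP8_T1.

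Rank 98 fell by 6.03 (SE 0.07), rank 66 fell by 5.79 (SE 0.07) and rank 49, of 953 bases, fell by 4.61 (SE 0.06). Rank 66 was at 0.336%, 0.330%, 0.316% and 0.301% in WT, at 0.0623% to 0.0727% in C and at 0.00197% to 0.0139% in the hairpin libraries. Rank 49 was at 0.377% to 0.406%, 0.0768% to 0.0991% and 0.00865% to 0.0289% in the same order. Ranks 87, 89, 98 and 84 were in the top 100 of WT alone, and ranks 49 and 66 in those of WT and C. The lengths of ranks 87, 98, 66 and 49 lay between 920 and 953 bases, and 100%, 99.8%, 99.8% and 94.1% of their reads were unique. Rank 89 was longer, at 1080 bases, and 77.9% of its reads were unique. The 10 changes named for this comparison kept their direction and call under all 7 scalings.

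**Figure D3:**
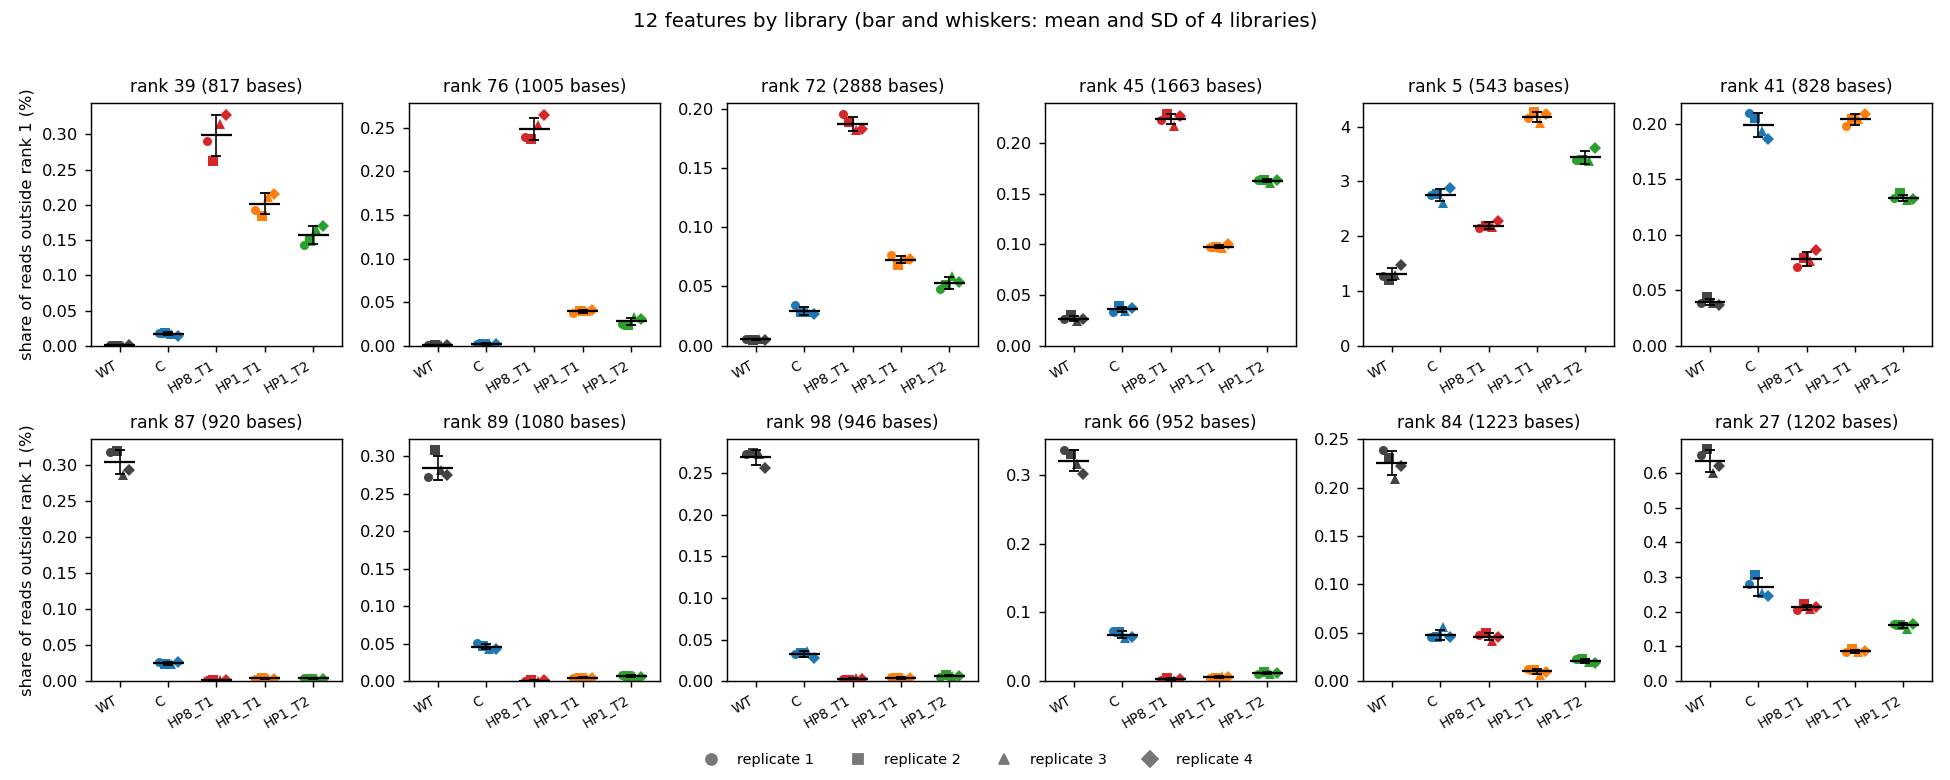
Each point is the share of the reads outside rank 1 in percent in a library, by group, for 12 of the features named in the text. These are not all of the features with large changes. Bars and whiskers are the mean and SD of 4 libraries, and every axis starts at 0. In the lower row all features are highest in WT, while in the upper row WT is lowest, C lies below all hairpin groups for ranks 39, 76, 72 and 45, and C is as high as HP1_T1 for rank 41.

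In the same fit, features with no call between the hairpin mean and WT were ranks 20, 35, 38, 67 and 79, with log2 fold changes from -0.14 to 0.11. Rank 38, of 751 bases, lay at 0.164% to 0.189% in WT and 0.164% to 0.191% in the hairpin libraries. The C libraries, at 0.133% to 0.141%, were below all of these. Rank 67, of 589 bases, had the smallest ratio of group means on the list, 1.27, followed by ranks 9, 38, 81 and 3 at 1.28, 1.32, 1.37 and 1.40. Ranks 9 and 81 had 23.2% and 19.8% unique reads. Constancy on the share scale is relative to the reads outside rank 1: with TMM factors rank 67 was lower in the hairpin mean by 0.61 and rank 38 by 0.69 on the log2 scale.

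The hairpin mean against C compares transgenic plants with and without the Tnt1 fragment. The hairpin transgene also held a GUS reporter, which is not named for C, and C has no stated line or generation. The fragment, the reporter, line and generation cannot be told apart in this comparison. On the share scale 40 features were higher, beside 24.9% of all tested, and 46 lower, beside 16.3%. With TMM factors these were 40, beside 24.6%, and 46, beside 16.5%. As shares of all reads, where the median log2 fold change of all tested features was itself 1.23, 78 were higher, beside 77.3%, and 9 lower, beside 2.92%. Under all 7 scalings 34 were higher, beside 18.3%, and 9 lower, beside 2.92%. Called changes of at least 2-fold were seen in 27 features, beside 25.7%. They were 11 up and 16 down, beside 1172 and 608 of the 6921 tested. The former were thus below the background and the latter above it.

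Rank 76 rose by 4.92 (SE 0.16), rank 39 by 3.62 (SE 0.10), rank 65 by 2.36 (SE 0.09), rank 73 by 2.17 (SE 0.10) and rank 45, of 1663 bases, by 2.08 (SE 0.08). Ranks 39, 45, 65 and 73 were in the top 100 of the 3 hairpin groups only, and rank 76 in that of HP8_T1 alone. They are on the list through these groups, so the sizes of their rises are a description. Rank 45 was at 0.0331%, 0.0388%, 0.0344% and 0.0372% in C, near the 0.0240% to 0.0300% of WT. It was at 0.223%, 0.229%, 0.216% and 0.226% in HP8_T1, and in line 1 at 0.0975%, 0.0973%, 0.0963% and 0.0998% in T1 and 0.164%, 0.163%, 0.161% and 0.163% in T2. The hairpin groups did not overlap each other or the controls. Rank 73 was at 0.0186% to 0.0256% in C, 0.128% to 0.143% in HP1_T1, 0.106% to 0.127% in HP8_T1 and 0.0590% to 0.0672% in HP1_T2.

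Ranks 89, 66, 87, 98 and 49 led the falls here too, with log2 fold changes of -3.94, -3.54, -3.11, -2.98 and -2.39 and SEs from 0.08 to 0.13. Their edgeR adjusted p-values were 2.27e-50, 2.83e-54, 6.14e-39, 1.57e-41 and 7.64e-50. These 5 had also fallen in C against WT, so C lay between WT and the hairpin groups in each. The 10 changes named kept direction and call under all 7 scalings, whereas rank 84, at -1.18 on shares, was at -0.11 as a share of all reads.

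**Figure D4:**
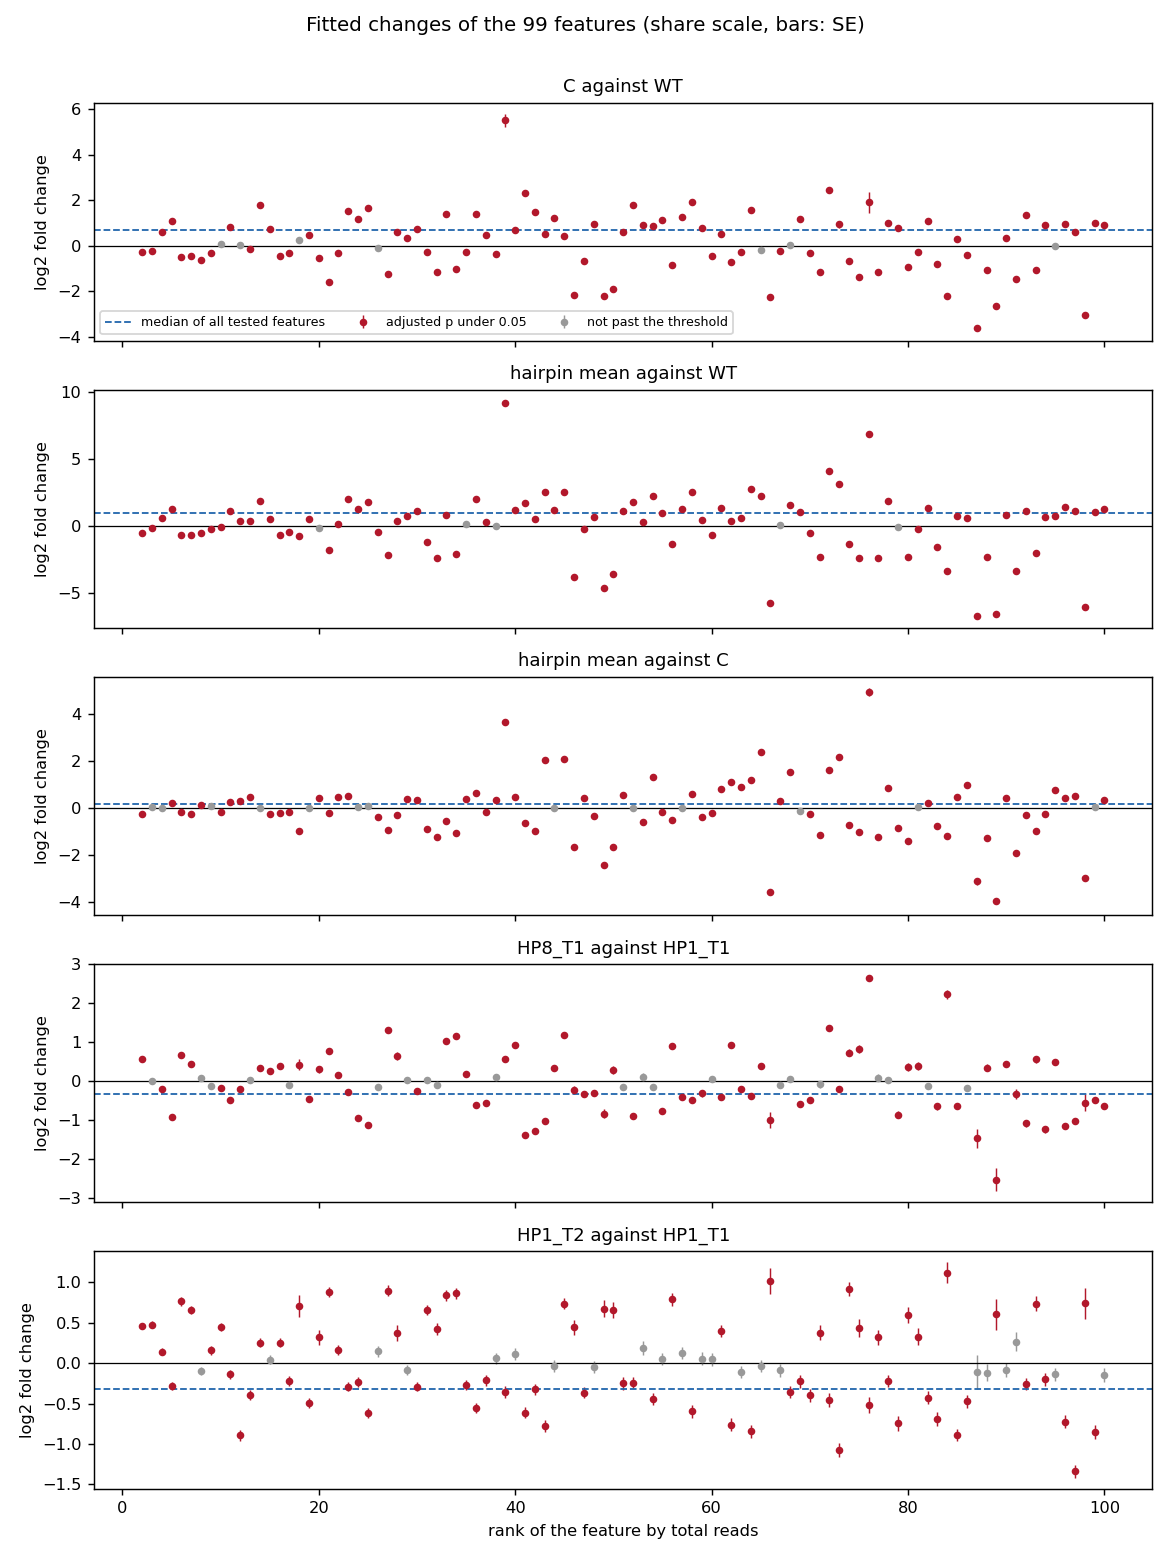
Each point is the fitted log2 fold change of a feature on the share scale, plotted against its rank, with its SE, in 5 comparisons. Red points passed an adjusted p of 0.05 and grey ones did not, and the dashed line is the median of all tested features. The largest changes lie from rank 39 on, and in HP1_T2 against HP1_T1 all points lie between -1.34 and 1.12.

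HP8_T1 against HP1_T1 compares the 2 hairpin lines. On the share scale 34 features were higher in HP8_T1, beside 12.1% of all tested, and 44 lower, beside 34.7%. With TMM factors these were 47, beside 18.9%, and 28, beside 22.3%. Under all 7 scalings 34 were higher, beside 12.1%, and 24 lower, beside 19.6%. Under these rules the higher features were above the background and the lower ones nearer to it. Called changes of at least 2-fold were seen in 7 features up and 10 down, beside 415 and 1317 of the 6921 tested, so that the latter were below it.

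Rank 76 rose in HP8_T1 by 2.64 (SE 0.08), a description only, since it is on the list through that group. Rank 84 rose by 2.24 (SE 0.11, edgeR adjusted p = 9.78e-33). Rank 84 was at 0.239%, 0.231%, 0.209% and 0.223% in WT, 0.0451%, 0.0457%, 0.0555% and 0.0454% in C and 0.0474%, 0.0501%, 0.0417% and 0.0452% in HP8_T1. It was at 0.0126%, 0.0113%, 0.00652% and 0.00947% in HP1_T1 and 0.0229%, 0.0230%, 0.0200% and 0.0189% in HP1_T2. C and HP8_T1 overlapped, and line 1 was below both in either generation. Rank 72 rose by 1.37, also a description only, since 4286 of its 7236 reads were in HP8_T1. Rank 27, of 1202 bases, rose by 1.31 and rank 45 by 1.19. Rank 72 was at 0.195%, 0.189%, 0.182% and 0.183% in HP8_T1 and 0.0685% to 0.0763% in HP1_T1. Rank 27 was at 0.204% to 0.222% in HP8_T1, 0.0827% to 0.0926% in HP1_T1 and 0.599% to 0.670% in WT.

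Lower in HP8_T1 were rank 89 by 2.52 (SE 0.29), rank 87 by 1.46 (SE 0.24), rank 41 by 1.38 (SE 0.07), rank 42, of 916 bases, by 1.27 (SE 0.07) and rank 94, of 908 bases, by 1.23 (SE 0.08) on the log2 scale. For ranks 89 and 87 these are differences between groups with 1 to 10 reads per library in HP8_T1. Rank 41 was at 0.0707%, 0.0792%, 0.0763% and 0.0867% in HP8_T1 and 0.198%, 0.205%, 0.205% and 0.210% in HP1_T1. Rank 42 was at 0.0662% to 0.0706% in HP8_T1, just below the 0.0723% to 0.0845% of WT, and at 0.159% to 0.167% in HP1_T1. Rank 94 was at 0.0375% to 0.0422% in HP8_T1, overlapping the 0.0388% to 0.0479% of WT, and at 0.0833% to 0.107% in HP1_T1. The 10 changes named kept direction and call under all 7 scalings.

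HP1_T2 against HP1_T1 sets selfed progeny against their parent generation. On the share scale 36 features were higher in HP1_T2, beside 8.64% of all tested, and 41 lower, beside 32.2%. With TMM factors these were 49, beside 14.4%, and 21, beside 20.5%. Under all 7 scalings 27 were higher, beside 6.79%, and 15 lower, beside 16.8%. Called changes of at least 2-fold were seen in only 4 features, 2 up, beside 4.05% of all tested, and 2 down, beside 17.9%, so that both were below the background. The median SE was 0.07 for the 99 features and 0.30 for all tested, so fitted values of the latter scatter more. With TMM factors 9 features changed at least 2-fold, beside 18.8%. Without a limit on size, higher features were above the background on shares, with TMM and under all 7 scalings, and lower ones were nearer to it.

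Rank 84 rose by 1.12 (SE 0.13) and rank 66 by 1.02 (SE 0.16), both from low levels in HP1_T1. Rank 66 was at 0.00443%, 0.00423%, 0.00747% and 0.00638% in HP1_T1 and 0.0100%, 0.0139%, 0.0106% and 0.0117% in HP1_T2, without overlap and far below WT. Rank 74, of 949 bases, rose by 0.91, rank 27 by 0.90 and rank 21, of 1655 bases, by 0.88. Rank 74 was at 0.0350% to 0.0382% in HP1_T1 and 0.0662% to 0.0713% in HP1_T2, and rank 21 at 0.129% to 0.140% and 0.241% to 0.256%. These 5 were all highest in WT, so HP1_T2 lay nearer to WT than HP1_T1 did.

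Rank 97, of 976 bases, fell by 1.34 (SE 0.08, edgeR adjusted p = 4.73e-27). It had 2628 of its 6032 reads in HP1_T1, so the size of its fall is a description and the p-value is no support. It was at 0.126%, 0.117%, 0.120% and 0.122% in HP1_T1 and 0.0459%, 0.0467%, 0.0458% and 0.0531% in HP1_T2, overlapping the 0.0436% to 0.0566% of C. Rank 73 fell by 1.07 (SE 0.08), and ranks 12, 85 and 99, of 535, 2430 and 493 bases, fell by 0.89, 0.89 and 0.85. Rank 12 was at 0.837%, 0.831%, 0.698% and 0.724% in HP1_T1 and 0.448%, 0.442%, 0.386% and 0.389% in HP1_T2, the latter overlapping the 0.426% to 0.527% of WT. Rank 85 was at 0.106% to 0.118% in HP1_T1 and 0.0565% to 0.0628% in HP1_T2, and rank 99 at 0.0831% to 0.104% and 0.0458% to 0.0617%. Ranks 73, 85 and 99 also had more reads in HP1_T1 than in any other group, so the sizes of their falls are a description as well. The 10 changes named kept direction and call under all 7 scalings.

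Of the 99 features, 58 had at least 99% unique reads, and 6 had under 50%. These 6, ranks 9, 47, 60, 64, 75 and 81, may share reads with near-identical copies. They had 25 calls over the 5 comparisons, of which 14 kept call and direction on unique reads. Rank 47 was lower in the hairpin mean than in WT by 0.25 on all reads and higher by 0.73 on unique reads, so its direction is uncertain.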

How the data were processed

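Leaf RNA of 20 libraries was measured in 5 groups of 4. Per the file headers, the authors deposited whole-number read counts per UniGene feature, as total and as unique gene reads, with feature lengths. Aligner and build: not given in the sources used here. WT columns of both deposited tables were equal and were used once. Members and lists were chosen with earlier results of these data known. Shares are total gene reads divided by the reads outside rank 1.

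All 20 libraries were fitted once with edgeR 4.0.16 (R 4.3.3), using the deposited counts. The library size was the reads outside rank 1, features passed filterByExpr with a minimum count of 10 (6921 of 24069), group was the only term, and quasi-likelihood F tests were adjusted by Benjamini-Hochberg over all 6921 features at 0.05. The hairpin mean weighs its 3 groups equally. SEs were the log2 fold change divided by the square root of F. The fit was tested on simulated data. Alternatives were 6 further scalings, unique reads, no or another filter, DESeq2 1.42.0, a replicate block and leaving out each library. Calls under all 7 scalings and counts of 2-fold changes were combined after seeing the data.

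Named were ranks 2 to 10, the 5 largest rises and falls per comparison among called features whose groups did not overlap, and the 5 steadiest and widest features. Further features were named after their values were seen: those with no call against WT, and ranks 47, 60 and 75, which have few unique reads. Identifiers are printed for 2 rises and 2 falls. Depth was 199341 to 647426 reads outside rank 1 per library; at a few reads per library precision is low. Tables and plots were made in Python 3.11.15.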

Additional observations from a re-analysis of the deposited data

Results flagged for a closer look

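Some single libraries stood apart from the other 3 of their group by Dixon's test. Of 200 combinations of a feature or sum with a group, 8 met it, which is near the 1 in 20 that chance gives. In HP1_T2 replicate 4, rank 5 was at 3.605% (others 3.37% to 3.40%) and rank 97 at 0.0531% (0.0458% to 0.0467%). In HP8_T1 replicate 4, rank 42 was at 0.0706% (0.0662% to 0.0669%) and rank 81 at 0.0940% (0.0703% to 0.0734%). In WT, rank 49 was at 0.377% in replicate 3 (0.401% to 0.406%) and rank 98 at 0.256% in replicate 4 (0.272% to 0.274%). In C replicate 3, rank 84 was at 0.0555% (0.0451% to 0.0457%). Ranks 11 to 100 summed to 13.85% in HP1_T2 replicate 3 (13.94% to 13.95%).

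Among the 36 named features, and not over all 99, pairs of hairpin groups were checked for lying on opposite sides of WT. This was so in 4, where the difference between the hairpin groups passed edgeR's test on the share scale. The check was not made over all tested features, and some of the 36 were named for their differences between hairpin groups. Whether 4 is more than the background was therefore not tested. Rank 42 was at -0.25 against WT in HP8_T1 and 1.02 in HP1_T1, a difference of -1.27 (adjusted p = 1.56e-29). For HP1_T2 against HP1_T1, rank 3 stood at 0.13 and -0.35 against WT, a difference of 0.48 (adjusted p = 4.32e-16), and rank 10 at 0.25 and -0.19, a difference of 0.45 (adjusted p = 6.54e-11). Rank 12 stood at -0.20 and 0.70, a difference of -0.89 (adjusted p = 3.21e-21). These sides of WT depend on the scale, as the shift of all features does.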

How the results depend on the processing

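Counts of called features depended on scaling, and the share of all tested features called moved with them (in parentheses). With DESeq2 size factors 29 (21.2%) were higher in C than in WT and 35 (32.8%) in the hairpin mean than in WT. HP8_T1 had 55 (21.4%) higher and 24 (19.9%) lower than HP1_T1, and HP1_T2 had 55 (16.9%) and 16 (17.9%). With TMM factors 28 (20.5%) and 36 (35.3%) were higher than in WT in C and the hairpin mean, and 28 (22.3%) and 21 (20.5%) lower than in HP1_T1 in HP8_T1 and HP1_T2. As shares of all reads, 30 (22.5%) were higher in C than in WT, 24 (7.54%) lower in the hairpin mean than in WT, and 78 (77.3%) higher and 9 (2.92%) lower in the hairpin mean than in C. With totals outside ranks 1 to 100, HP8_T1 had 28 (21.9%) lower than HP1_T1, and HP1_T2 had 55 (17.2%) higher and 16 (17.6%) lower. With the upper quartile, 35 (33.1%) were higher in the hairpin mean than in WT, HP8_T1 had 24 (19.6%) lower than HP1_T1, and HP1_T2 had 55 (17.2%) higher and 15 (16.8%) lower. The cause was not tested. Leaving out each library in turn kept all 220 recomputed counts within 1.5 times and all 80 summed shares within 1 SD. Of the calls of named features, 5 of ranks 8, 9 and 10 were lost and 1 of rank 9 was gained when a library was left out; none of these calls is used in the text. The fold change of rank 39 moved by over 1.5 times without WT replicate 1.

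Summed shares moved with their denominator. Outside ranks 1 and 2, ranks 3 to 10 summed to 24.9%, 23.1%, 20.8%, 20.3% and 26.1%, and ranks 11 to 100 to 25.5%, 20.9%, 21.4%, 18.99% and 19.6%, in WT, C, HP8_T1, HP1_T1 and HP1_T2. On unique reads, rank 2 was 39.8%, 32.8%, 22.05% and 30.1% in WT, HP8_T1, HP1_T1 and HP1_T2, and ranks 11 to 100 were 14.9%, 13.6%, 13.9%, 14.2% and 13.2% in the 5 groups.

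Directions of ranks 2 to 10 turned under some scalings (log2). In C against WT, rank 4 was at -0.038 (DESeq2 factors) and -0.059 (TMM), and rank 10 at -0.57, -0.59, -0.49 (all reads), -0.25 (outside ranks 1 to 100) and -0.49 (upper quartile). Rank 9 was at 0.012 on unique reads. In the hairpin mean against WT, rank 4 was at -0.14, -0.073 and -0.13 (DESeq2, TMM, upper quartile), and as shares of all reads rank 2 was at 0.0011, rank 3 at 0.33, rank 9 at 0.29 and rank 10 at 0.42. In the hairpin mean against C, ranks 2, 4, 6, 7 and 10 were at 0.84, 1.07, 0.90, 0.82 and 0.90 as shares of all reads, rank 3 at -0.11 with the upper quartile, and rank 8 at -0.0031 outside ranks 1 to 100 and -0.037 with the upper quartile. In HP8_T1 against HP1_T1, the values with DESeq2, TMM, outside ranks 1 to 100 and upper quartile were 0.31, 0.25, 0.27 and 0.31 for rank 3, 0.11, 0.051, 0.065 and 0.11 for rank 4, 0.20, 0.14, 0.16 and 0.20 for rank 9, and 0.14, 0.076, 0.0904 and 0.14 for rank 10. Outside ranks 1 and 2, rank 3 was at 0.20 and rank 10 at 0.022. In HP1_T2 against HP1_T1, rank 5 was at 0.021, 0.029 and 0.047 and rank 8 at 0.21, 0.21 and 0.23 with DESeq2, outside ranks 1 to 100 and upper quartile.

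Replicate numbers are shared between groups, but the labels do not pair the libraries. Deviations of same-numbered libraries from their group means correlated at -0.00129 to 0.0371 over all tested features. Over the 99 they correlated at -0.0669 to 0.601 (median 0.346), with 36 of 40 pairs over 0.1. Other-numbered pairs over the 99 lay at -0.595 to 0.427 (median -0.149), with 34 of 120 over 0.1. Replicate numbers ordered the share of rank 2 alike in all 5 groups. The common coefficient of variation of the fit was 8.99% without and 5.93% with a replicate block, so SEs of the main fit include this spread. In 55 of 80 cases the best correlated library of another group had the same number. With the replicate block, C had 50 (42.9%) higher and 45 (9.58%) lower than WT, and ranks 10, 18 and 26 gained a call, at 0.073, 0.25 and -0.096. The hairpin mean had 57 (61.6%) and 39 (12.5%) against WT, where ranks 20 and 35 gained a call at -0.13 and 0.11. It had 43 (1733 of 6921) and 47 (16.5%) against C. Against HP1_T1, HP8_T1 had 36 (12.3%) and 50 (35.3%), and HP1_T2 had 40 (8.73%) and 43 (32.7%).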
